A study of Mus musculus with 12 samples.

Results

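The genes described here are 10 established transcriptional targets of the tumour suppressor p53, leaving out Cdkn1a (p21): Mdm2, Ccng1, Phlda3, Bbc3, Bax, Zmat3, Aen, Sesn1, Sesn2 and Trp53inp1. They were taken by name from the deposited count table, which held all 10 among 18068 genes, and all 10 passed the filter on low counts that left 13750 genes tested. RNA was sequenced, as directional poly(A) libraries, from enteroids, which are cultures of intestinal epithelium, here grown from the ileum of wild-type C57Bl/6 mice. The study compared gene expression with and without IL-13 and butyrate. The 4 groups of 3 libraries were enteroids given both butyrate at 1 mM for 48 h and IL-13 at 20 ng/mL for 72 h, enteroids given only IL-13, enteroids given only butyrate, and untreated enteroids. The cytokine IL-13 drives type 2 immune responses by way of STAT6, and butyrate, a bacterial fatty acid, inhibits histone deacetylases.

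p53 is a transcription factor that is kept scarce by the ubiquitin ligase Mdm2 and becomes stable after DNA damage and other stresses. It then binds DNA sites near its target genes and raises their transcription, and the targets include brakes on the cell cycle, parts of the apoptosis machinery, genes of stress metabolism and inhibitors of p53 itself. In the intestinal epithelium this response is best known from irradiated crypts, where Bbc3 (PUMA) takes part in the death of stem and progenitor cells. Much of p53 control acts on the protein, which RNA counts do not measure.

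Library totals ran from 13867982 to 15618074 counts with both agents, 14239405 to 15008598 with IL-13, 17006538 to 24294456 with butyrate and 16303915 to 22558599 in untreated enteroids. Replicates differed by more than counting noise, with a chi-square per degree of freedom of 3.9 to 37.68. Whether the replicates of a group are separate cultures or animals is not stated in the labels. The p-values therefore rest on the spread among these samples alone, and that spread may be technical. Butyrate + IL-13 replicate 3 and butyrate replicate 2 stood apart by 95476 and 97084 counts of Lars2, a mitochondrial leucyl-tRNA synthetase, and values without both are given where a call depends on them. The 7 epithelial markers were present in every library. Their summed level, in CPM (counts scaled to library size), was 13820 to 14160 with both agents, 11970 to 12310 with IL-13, 9381 to 10800 with butyrate and 9490 to 9770 in untreated enteroids. Of the other cell types, 4 mesenchymal markers together stayed at or below 0.613 CPM and 3 endothelial markers at or below 1.23 CPM in every library. The 4 immune markers measured together reached 17.2 CPM, chiefly from Cd68 and Itgam, while Ptprc stayed at or below 0.721 CPM. Of these markers Cd68 was at 5.41 ± 1.53 CPM with both agents, 5.19 ± 1.45 CPM with IL-13, 2.68 ± 0.115 CPM with butyrate and 2.49 ± 0.127 CPM in untreated enteroids, and was called higher with IL-13 over untreated and with both agents over untreated and over butyrate. The endothelial marker Pecam1, at 1.14 ± 0.0418 CPM with IL-13 and 0.478 ± 0.0314 CPM in untreated enteroids, was called higher in that comparison alone (edgeR adjusted p = 0.038, kept under 11 of 21 alternatives), a call lost without any 1 of the IL-13 or untreated replicates. The part of these markers in the results was not tested. In bulk RNA, fewer cells of a kind and less RNA per cell cannot be told apart.

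The stretches of DNA before the start sites of the targets are shown here because p53 acts through such DNA. RefSeq windows of 300 bases on build GRCm38.p6, from 250 before to 50 after a start, were available for 8 of the 10 genes in 12 windows, and Zmat3 and Trp53inp1 are only named. They were searched for the p53 half-site consensus, 10 letters that read the same on both strands, and for a looser core pair, which is 2 runs of 4 letters with 6 bases between them, each run opening with C, closing with G and holding only A or T in the middle, again alike on both strands. Capitals mark the match, or in Phlda3 the start base. Each stretch runs 5′ to 3′ along the strand of its gene.
Mdm2, half-site, chr10:117710910-117710969, minus strand: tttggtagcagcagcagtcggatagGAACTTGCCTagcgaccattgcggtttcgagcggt
Ccng1, half-site, chr11:40755437-40755496, minus strand: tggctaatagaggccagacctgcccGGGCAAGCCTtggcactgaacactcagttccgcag
Phlda3, 250 bases before the start, chr1:135765835-135766085, plus strand: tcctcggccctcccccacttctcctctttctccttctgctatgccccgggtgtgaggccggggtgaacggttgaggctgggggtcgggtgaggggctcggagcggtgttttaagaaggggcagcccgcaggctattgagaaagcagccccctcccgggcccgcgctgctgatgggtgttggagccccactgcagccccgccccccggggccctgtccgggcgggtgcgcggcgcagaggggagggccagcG
Bbc3, core pair, chr7:16309464-16309527, plus strand: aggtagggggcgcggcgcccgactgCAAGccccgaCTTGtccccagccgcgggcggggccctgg
Bax, half-site, chr7:45467065-45467124, minus strand: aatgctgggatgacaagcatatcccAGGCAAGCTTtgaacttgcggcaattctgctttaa
Aen, half-site, chr7:78895927-78895956, plus strand: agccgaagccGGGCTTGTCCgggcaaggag
Aen, core pair, chr7:78895932-78895961, plus strand: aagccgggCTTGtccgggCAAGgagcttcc
Sesn1, half-site before the second start, chr10:41887241-41887300, plus strand: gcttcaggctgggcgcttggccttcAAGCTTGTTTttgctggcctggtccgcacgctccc

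A half-site match stood in 6 of the 12 windows, belonging to 5 genes, whereas 8.36% of all 32851 mouse windows held one. The core pair stood in 3 windows of Bbc3 and Aen, against 7.22% of all windows. In Aen the core pair overlapped the half-site, and both windows of Aen held the same half-site and the same core pair, each counted in both. The genes were chosen as known p53 targets, so a higher share of matches than over all windows is no finding. The half-site lay 186 bases before the start in Mdm2, 185 in Ccng1, 201 in Bax and 173 before the second start of Sesn1. In Aen the match lay 10 bases past the first listed start and 121 before the second. The window of Phlda3, with a GC content of 71.7%, and that of Sesn2 held neither pattern. All 12 windows were richer in GC, at 55.7% to 78.0%, than the median window of 52.7%. A match is a run of letters and not a measured binding site, and no binding was measured here.

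Levels are given in CPM, counts per 1e6 of the TMM-scaled library size, with means ± SD of n = 3 libraries. Overlap of libraries is stated on this scale. Its TMM factors were 0.876 to 0.979 in libraries with IL-13 and 1.04 to 1.11 in those without it. Fold changes are log2 of the first group over the second ± standard error from a single edgeR quasi-likelihood fit of the 12 libraries, and p-values were adjusted by Benjamini-Hochberg over the 13750 genes and called below 0.05. In enteroids given IL-13 against untreated ones, 6 of the 10 targets rose, namely Phlda3, Sesn2, Mdm2, Ccng1, Zmat3 and Trp53inp1, and Sesn1 fell. Bax, Aen and Bbc3 did not pass the test. Among all genes tested 43.5% were called in this comparison, 21.8% higher and 21.7% lower. The median log2 fold change was 0.36 over the 10 targets and -0.01 over all genes. Scaled by library totals in place of TMM the median of all genes was -0.18. Relative to it the fold changes of the 6 risen targets ran from 0.33 for Zmat3 to 0.90 for Phlda3, with Sesn1 at -1.10. Taking values relative to the median is itself a rescaling, so their nearness to the TMM values is no separate check. With library totals alone the calls of Zmat3 (edgeR adjusted p = 0.21) and Trp53inp1 (0.091) were lost.

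**Figure D1:**
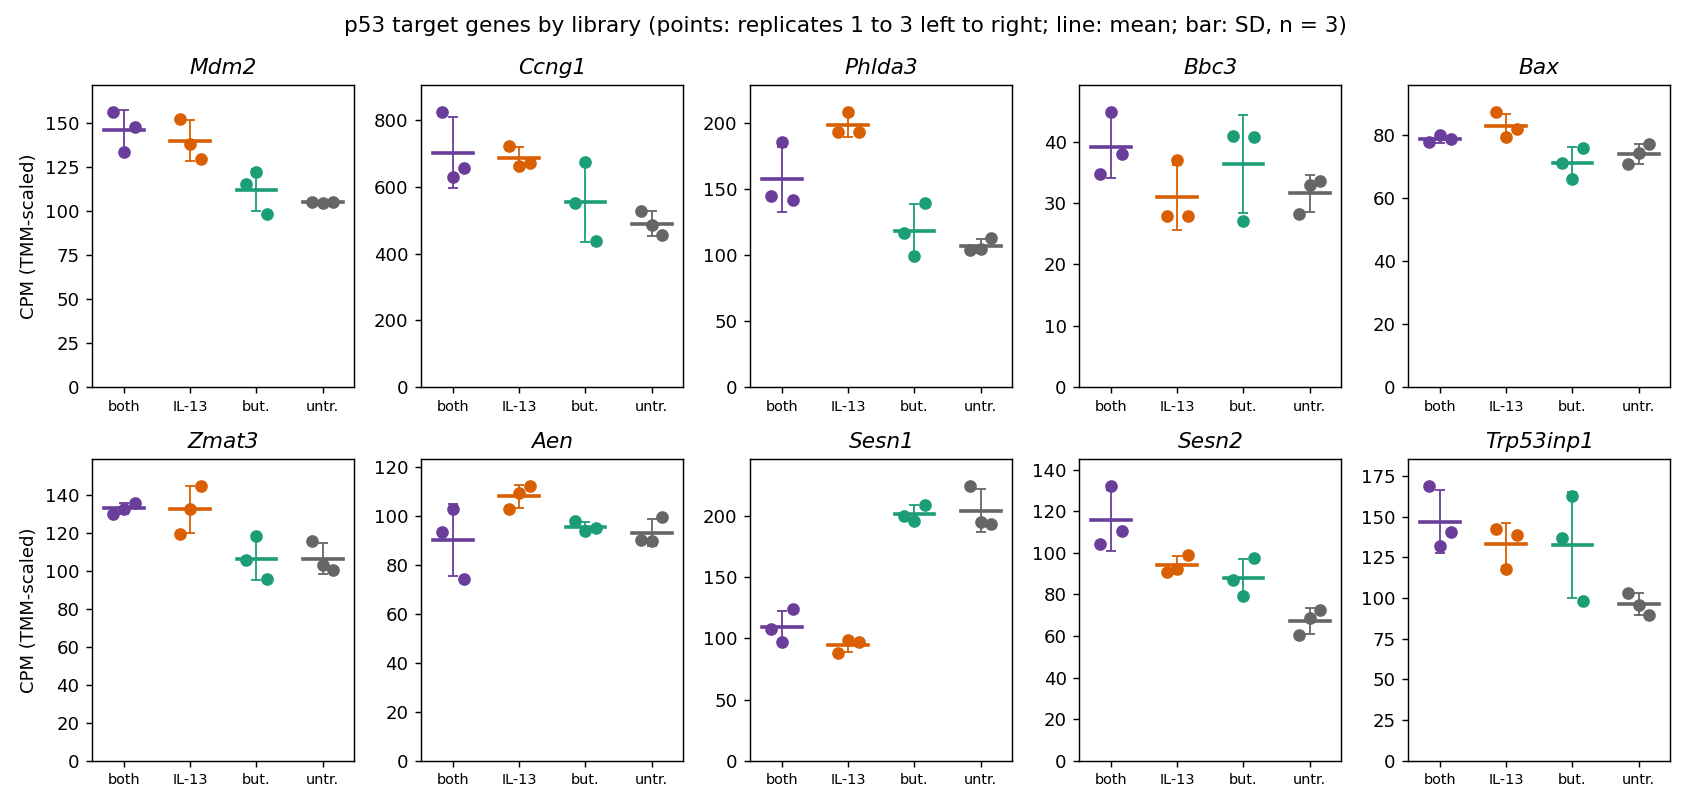
CPM (TMM-scaled, linear axis from 0) of each of the 10 p53 targets in butyrate + IL-13 (both), IL-13, butyrate (but.) and untreated (untr.) libraries, with points for replicates 1 to 3, a line for the mean and a bar for the SD (n = 3). Phlda3 is highest with IL-13 at 193 to 208 CPM, Sesn2 is highest with both agents at 104 to 132 CPM, and Sesn1 is at 88.2 to 124 CPM in the 6 IL-13 libraries, below all 6 others.

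Mdm2 (ENSMUSG00000020184, chr10:117688888-117710758 on mm10), the ligase that marks p53 for degradation and so closes a feedback loop, had 156, 134 and 148 CPM with both agents, 152, 138 and 129.5 CPM with IL-13, 115, 122 and 98.4 CPM with butyrate and 105, 104 and 105 CPM in untreated enteroids. On the TMM scale every library with IL-13 lay above every library without it. By library totals alone butyrate replicate 2 reached into the range of those with IL-13. Mdm2 averaged 139.9 ± 11.5 CPM with IL-13 and 105 ± 0.438 CPM in untreated enteroids, a log2 fold change of 0.42 ± 0.09 with an edgeR adjusted p of 0.0013. The call was kept under all 22 alternatives, with adjusted p up to 0.034. Ccng1 (ENSMUSG00000020326, chr11:40748552-40755311), which encodes cyclin G1, a partner of protein phosphatase 2A that acts on Mdm2, had 824, 629.8 and 657 CPM with both agents, 724, 664 and 672 CPM with IL-13, 552, 676 and 438 CPM with butyrate and 529, 487 and 456 CPM in untreated enteroids. The IL-13 and untreated libraries did not overlap, whereas butyrate replicate 2 reached into the range of the libraries with IL-13. Ccng1 rose by 0.49 ± 0.13 with IL-13 over untreated (edgeR adjusted p = 0.0048), also kept under all 22 alternatives.

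Phlda3 (ENSMUSG00000041801, chr1:135766119-135769136), a pleckstrin-homology protein that restrains the survival kinase Akt at the membrane, had 145, 186 and 142 CPM with both agents, 193, 208 and 193 CPM with IL-13, 117, 99.4 and 139 CPM with butyrate and 104, 104 and 113 CPM in untreated enteroids. The 3 IL-13 libraries stood above all 9 others. Its mean of 198 ± 8.51 CPM with IL-13 against 107 ± 5.22 CPM in untreated enteroids was a log2 fold change of 0.89 ± 0.11, the largest rise among the 10 targets in this comparison (edgeR adjusted p = 6e-06). For scale, Cdkn1a (p21) averaged 1404 ± 92.8 CPM with IL-13 and 443 ± 6.92 CPM in untreated enteroids, a log2 fold change of 1.66 ± 0.08 (edgeR adjusted p = 8.4e-12).

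Bax, Bbc3 and Aen did not pass the test with IL-13 over untreated. Bax (ENSMUSG00000003873, chr7:45461695-45466898), which opens pores in the mitochondrial outer membrane, had 77.5, 80.0 and 78.5 CPM with both agents, 87.0, 79.2 and 81.7 CPM with IL-13, 71.1, 66.0 and 75.9 CPM with butyrate and 70.7, 74.0 and 77.0 CPM in untreated enteroids. The IL-13 libraries lay just above the untreated ones on the TMM scale, whereas by library totals alone the groups overlapped. The log2 fold change of 0.16 ± 0.08 did not pass (edgeR adjusted p = 0.11, approximate 95% interval 0 to 0.32). Bax shares 192 exon bases with the predicted gene Gm45808 on the same strand, so reads there could have been assigned to either gene. Bbc3 (ENSMUSG00000002083, chr7:16309616-16318205), the BH3-only protein PUMA, had 34.8, 44.8 and 38.0 CPM with both agents, 27.8, 37.1 and 27.8 CPM with IL-13, 41.0, 27.1 and 40.8 CPM with butyrate and 28.2, 32.9 and 33.5 CPM in untreated enteroids. The IL-13 and untreated ranges of Bbc3 overlapped, and its log2 fold change was -0.03 ± 0.15 (edgeR adjusted p = 0.9, interval -0.33 to 0.28). Aen (ENSMUSG00000030609, chr7:78895854-78911209), a nuclease that p53 induces during apoptosis, had 93.6, 103 and 74.2 CPM with both agents, 103, 109 and 112 CPM with IL-13, 98.0, 93.8 and 94.9 CPM with butyrate and 90.3, 89.6 and 99.7 CPM in untreated enteroids. The IL-13 libraries of Aen lay above the untreated ones by 0.22 ± 0.1 on the log2 scale (edgeR adjusted p = 0.087), but overlapped them by library totals alone. Aen was called under only 4 of 22 alternatives, with adjusted p up to 0.74 and log2 fold changes down to 0.05. The adjusted p was 0.012 in a fit of only these 2 groups, 0.023 without butyrate + IL-13 replicate 3 and 0.024 without both libraries high in Lars2. The authors' deposited table gave Aen an FDR of 0.012.

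Zmat3 (ENSMUSG00000027663, chr3:32334796-32365678), a zinc-finger protein that binds RNA and affects splicing, had 130.3, 133 and 136 CPM with both agents, 119.8, 133 and 145 CPM with IL-13, 106, 118 and 95.7 CPM with butyrate and 116, 103 and 100.5 CPM in untreated enteroids. On the TMM scale the libraries with IL-13 were again above all those without it. By library totals alone untreated replicate 1 and butyrate replicate 2 reached into the range of those with IL-13. With IL-13 over untreated Zmat3 rose by 0.31 ± 0.09 (edgeR adjusted p = 0.011). When untreated replicate 3 or IL-13 replicate 3 was left out the adjusted p became 0.057 or 0.076, and with library totals it was 0.21. Trp53inp1 (ENSMUSG00000028211, chr4:11156431-11174379), a stress protein with roles in autophagy and apoptosis, had 169, 132 and 140.3 CPM with both agents, 142, 118 and 139 CPM with IL-13, 137, 163 and 98.0 CPM with butyrate and 103, 95.9 and 89.6 CPM in untreated enteroids. Its IL-13 libraries all exceeded the untreated ones, by 0.47 ± 0.14 on the log2 scale (edgeR adjusted p = 0.012). Leaving out untreated replicate 3 or IL-13 replicate 1 gave 0.052 or 0.053, and library totals gave 0.091.

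The sestrins, which damp mTORC1 signalling under nutrient and oxidative stress, moved in opposite directions. Sesn1 (ENSMUSG00000038332, chr10:41810574-41908424) had 107, 97.1 and 124 CPM with both agents, 88.2, 98.6 and 96.9 CPM with IL-13, 200.0, 196 and 209 CPM with butyrate and 224, 195 and 193 CPM in untreated enteroids. All 6 libraries with IL-13 lay far below the 6 without it. The mean of 94.6 ± 5.55 CPM with IL-13 against 204 ± 17.4 CPM in untreated enteroids was a log2 fold change of -1.11 ± 0.09 (edgeR adjusted p = 3e-08), and with both agents over butyrate it was -0.88 ± 0.09 (edgeR adjusted p = 4e-07). Both calls were kept under all 22 alternatives. Sesn2 (ENSMUSG00000028893, chr4:132492032-132510501), which in addition to p53 responds to the stress factor ATF4, had 104, 132 and 111 CPM with both agents, 91.0, 92.3 and 99.0 CPM with IL-13, 86.9, 79.2 and 97.5 CPM with butyrate and 60.4, 68.8 and 72.7 CPM in untreated enteroids. Each treated group of Sesn2 was above the untreated group without overlap. With IL-13 over untreated Sesn2 rose by 0.48 ± 0.1 (edgeR adjusted p = 0.00099), kept under all 22 alternatives.

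With butyrate over untreated Sesn2 and Trp53inp1 rose, 2 of the 10 targets, and none fell, where 7.9% of all genes were called, 5.14% higher and 2.76% lower. This comparison and that of IL-13 share the untreated libraries. The median over the 10 targets was 0.12, against -0.01 over all genes. Sesn2 averaged 87.9 ± 9.15 CPM with butyrate and 67.3 ± 6.25 CPM in untreated enteroids, a log2 fold change of 0.39 ± 0.1 (edgeR adjusted p = 0.026). Its adjusted p was 0.13 without untreated replicate 1, 0.078 without untreated replicate 2, 0.077 without butyrate replicate 1, 0.062 without butyrate replicate 3 and 0.07 with library totals. Trp53inp1 averaged 132 ± 32.5 CPM with butyrate and 96.2 ± 6.76 CPM in untreated enteroids, and the ranges overlapped, because butyrate replicate 3 at 98.0 CPM lay below untreated replicate 1 at 103 CPM. The log2 fold change of Trp53inp1 was 0.46 ± 0.14 (edgeR adjusted p = 0.049), a call kept under only 6 of 22 alternatives, with adjusted p up to 0.21 when butyrate replicate 2 was left out. Among single libraries left out, only butyrate replicate 3 and butyrate + IL-13 replicate 1 left the call in place, and without both libraries high in Lars2 the adjusted p was 0.18. The other 8 targets lay between -0.06 for Bax and 0.21 for Bbc3. Sesn1 was at 202 ± 6.81 CPM with butyrate and 204 ± 17.4 CPM in untreated enteroids, with an interval of -0.20 to 0.16 for the log2 fold change.

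**Figure D2:**
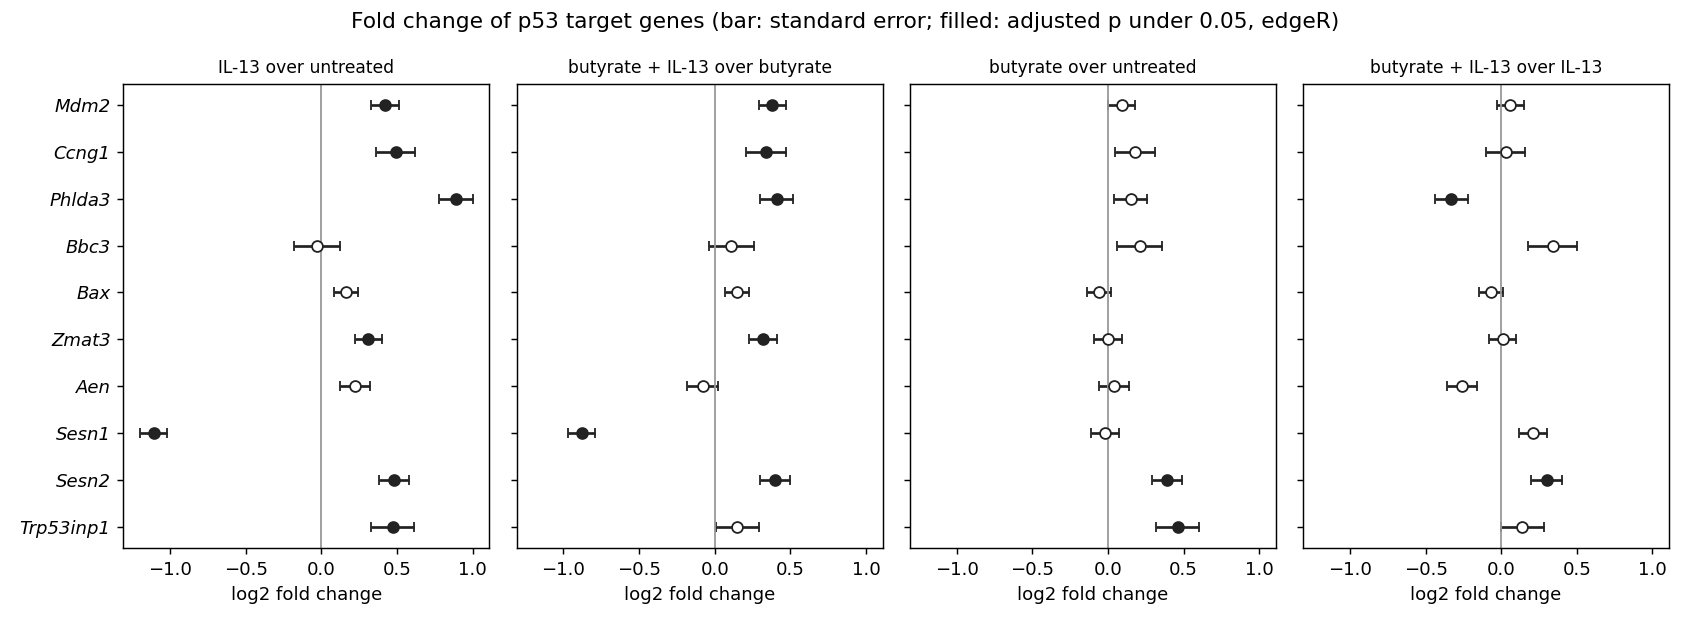
Log2 fold change with its standard error (bar) of each p53 target in 4 comparisons, from left: IL-13 over untreated, butyrate + IL-13 over butyrate, butyrate over untreated, and butyrate + IL-13 over IL-13. Filled points had an edgeR adjusted p below 0.05, which was 7 of the 10 targets in the first panel, 6 in the second, 2 in the third and 2 in the fourth. Among all genes tested 43.5%, 47.7%, 7.9% and 21.2% were called in these comparisons, in the same order.

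Adding butyrate to IL-13 moved Phlda3 and Sesn2 in opposite directions. Of the 10 targets 1 rose and 1 fell with both agents over IL-13, against 21.2% of all genes called, 9.85% higher and 11.3% lower. Phlda3 averaged 158 ± 24.5 CPM with both agents and 198 ± 8.51 CPM with IL-13, without overlap, a log2 fold change of -0.33 ± 0.11 (edgeR adjusted p = 0.046). Sesn2 averaged 116 ± 14.6 CPM with both agents and 94.1 ± 4.32 CPM with IL-13, also without overlap, a log2 fold change of 0.30 ± 0.1 (edgeR adjusted p = 0.049). Both calls sat near the threshold, and by library totals alone the Sesn2 groups overlapped. With library totals, where the median of all genes was -0.14, Sesn2 was lost (adjusted p = 0.25) and Aen was called lower (-0.39, adjusted p = 0.013), so that 0 targets were higher and 2, Phlda3 and Aen, lower. The Phlda3 call was kept under 9 of 22 alternatives. Of the libraries left out in turn it was kept without butyrate replicate 2, butyrate replicate 3 or butyrate + IL-13 replicate 2. Without each of the other 9 it was lost, with adjusted p up to 0.22 without butyrate + IL-13 replicate 3. Without both libraries high in Lars2 it was 0.084. The Sesn2 call was kept under 12 of 22 alternatives. It was kept without untreated replicate 1, butyrate replicates 2 or 3 and butyrate + IL-13 replicate 1, and lost without each other library, with adjusted p up to 0.22 without butyrate + IL-13 replicate 2.

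Of the targets that did not pass with both agents over IL-13, Aen had a log2 fold change of -0.26 ± 0.1 (edgeR adjusted p = 0.07), with no overlap between the groups. Without butyrate + IL-13 replicate 2 its adjusted p was 0.019. Aen was called under only 3 of 22 alternatives, with adjusted p up to 0.4. Bbc3 was at 39.2 ± 5.09 CPM with both agents and 30.9 ± 5.34 CPM with IL-13, a log2 fold change of 0.34 ± 0.16 (edgeR adjusted p = 0.13). Sesn1 was at 109 ± 13.3 CPM with both agents and 94.6 ± 5.55 CPM with IL-13, a log2 fold change of 0.21 ± 0.09 (edgeR adjusted p = 0.13). It was 0.049 without butyrate + IL-13 replicate 2, the only 1 of 22 alternatives that called Sesn1. Mdm2, Ccng1, Bax, Zmat3 and Trp53inp1 lay between -0.07 and 0.14.

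The interaction asked whether the response to butyrate differed between enteroids with and without IL-13. edgeR called 0 of the 10 targets, where 0.865% of all genes were called, 0.255% higher and 0.611% lower. At an unadjusted p below 0.05 edgeR had 2 lower, and DESeq2 called 0. These 2 were Phlda3, at -0.48 ± 0.16 (edgeR adjusted p = 0.23), and Aen, at -0.30 ± 0.14 (edgeR adjusted p = 0.45). For Phlda3 the butyrate response was -0.33 in the presence of IL-13 and 0.15 in its absence. With an offset for base composition in each library, the Phlda3 interaction had an adjusted p of 0.014, the smallest over its alternatives, which otherwise reached up to 0.44. The interval of the interaction was -0.29 to 0.22 for Mdm2 and -0.25 to 0.26 for Zmat3.

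With both agents over butyrate, Mdm2, Sesn2, Phlda3, Zmat3 and Ccng1 rose and Sesn1 fell, 6 of the 10 targets, where 47.7% of all genes were called, 22.9% higher and 24.9% lower. The log2 fold changes were 0.38 ± 0.09 for Mdm2, 0.40 ± 0.1 for Sesn2, 0.41 ± 0.11 for Phlda3 and 0.32 ± 0.09 for Zmat3. Ccng1, at 703 ± 105.0 CPM with both agents and 555 ± 119 CPM with butyrate, had overlapping groups and a log2 fold change of 0.34 ± 0.13 (edgeR adjusted p = 0.034). The Ccng1 value was 0.084 without butyrate replicate 1, 0.15 without butyrate replicate 3 and 0.15 without butyrate + IL-13 replicate 1. For Phlda3 the adjusted p was 0.0065, and 0.056 without butyrate + IL-13 replicate 2. Trp53inp1, at 147 ± 19.3 CPM with both agents and 132 ± 32.5 CPM with butyrate, did not pass (log2 fold change 0.15 ± 0.14, edgeR adjusted p = 0.39). Its adjusted p was 0.047 without butyrate replicate 2, 0.046 without both libraries high in Lars2 and 0.0098 with the offset for base composition. Only these 3 of 22 alternatives called Trp53inp1, and elsewhere its adjusted p reached 0.87. The 5 rises were all lost with library totals, under which the median of all genes was -0.27. Their adjusted p was then 0.17 for Mdm2, 0.18 for Sesn2, 0.19 for Phlda3, 0.44 for Zmat3 and 0.48 for Ccng1, and 0 targets were called higher and 2 lower, Sesn1 and Aen (-0.31, adjusted p = 0.018).

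With both agents over untreated, the 6 targets that rose with IL-13 were called higher and Sesn1 lower, where 59.7% of all genes were called, 28.2% higher and 31.5% lower. The median over the 10 targets was 0.40, against -0.05 over all genes. Sesn2 had the largest rise, at 116 ± 14.6 CPM with both agents and 67.3 ± 6.25 CPM in untreated enteroids, a log2 fold change of 0.78 ± 0.1 (edgeR adjusted p = 3.8e-06). Trp53inp1 rose by 0.61 ± 0.14, Phlda3 by 0.56 ± 0.11, Ccng1 by 0.52 ± 0.13, Mdm2 by 0.48 ± 0.09 and Zmat3 by 0.32 ± 0.09, while Sesn1 fell by 0.90 ± 0.09. Bbc3 had 39.2 ± 5.09 CPM with both agents and 31.6 ± 2.94 CPM in untreated enteroids, without overlap on the TMM scale. It did not pass at 0.31 ± 0.15 (edgeR adjusted p = 0.088). It was called under only 5 of 22 alternatives, with adjusted p up to 0.92. With library totals the groups overlapped and the log2 fold change was 0.02. Its adjusted p was 0.031 without butyrate replicate 2, 0.035 without butyrate + IL-13 replicate 1, 0.04 without both libraries high in Lars2 and 0.0026 with the offset for base composition. Scaled by library totals, the median of all genes in this comparison was -0.34. Relative to it, again a rescaling in itself, Sesn2 was at 0.83, Mdm2 at 0.52 and Bax at 0.14. With library totals alone 4 of the 10 targets were called. They were Sesn2, which was higher, and Sesn1, Aen (-0.34, adjusted p = 0.0087) and Bax (-0.20, adjusted p = 0.036), which were lower, so that Bax turned its sign.

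Per kilobase of exon, which allows a rough comparison of levels between genes, Ccng1 and Phlda3 were the most abundant of the 10 and Zmat3 the least in all 4 groups. The length counted every annotated exon of a gene, whether or not it was expressed here, and was 11435 bases for Zmat3. Without division by length Bbc3 was the lowest of the 10 in untreated enteroids, at 31.6 CPM, and Zmat3 was at 106.6 CPM. Ccng1 was at 200.3 CPM per kb with both agents, 196 with IL-13, 158 with butyrate and 139.7 in untreated enteroids. Phlda3 was at 101, 127, 76.0 and 68.7 CPM per kb in the same groups, and in no group did its libraries reach those of Ccng1. Sesn1 changed its place. It was 6th with both agents at 27.4 CPM per kb and 6th with IL-13 at 23.8 CPM per kb, against 3rd with butyrate at 50.6 CPM per kb and 3rd in untreated enteroids at 51.3 CPM per kb. In untreated enteroids Sesn1, at 48.5 to 56.3 CPM per kb, and Bax, at 44.9 to 48.9, overlapped, as did Mdm2 with Sesn2 and Aen with Trp53inp1 and Bbc3. With both agents Sesn2, at 29.99 to 38.0 CPM per kb, overlapped Mdm2, at 26.3 to 30.7.

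The gene for p53 itself, Trp53, was lower with IL-13. It had 39.0, 34.9 and 30.7 CPM with both agents, 35.1, 31.9 and 42.1 CPM with IL-13, 47.1, 38.2 and 46.2 CPM with butyrate and 44.9, 52.0 and 49.99 CPM in untreated enteroids. The IL-13 and untreated libraries did not overlap, and the log2 fold change was -0.43 ± 0.12 (edgeR adjusted p = 0.008, and 0.055 without IL-13 replicate 2). With both agents over untreated Trp53 was at -0.49 ± 0.12 (edgeR adjusted p = 0.002). Mdm4, the Mdm2 relative that blocks p53 activity, was not called in any of the 5 pairwise comparisons and had 52.8 ± 3.37 CPM with IL-13 and 57.2 ± 3.25 CPM in untreated enteroids. Its adjusted p for both agents over IL-13 was 0.087, and 0.029 without butyrate replicate 3. With IL-13 over untreated, 3 of the 15 tested regulators of p53 rose and 4 fell, with a median of -0.09, where 43.5% of all genes were called and their median was -0.01. The checkpoint kinases fell, Chek1 by 1.51 ± 0.21 and Chek2 by 0.97 ± 0.13. Cdkn2a, whose Arf product restrains Mdm2, rose by 1.15 ± 0.24 (edgeR adjusted p = 0.00092) at a low level, 5.41 ± 0.999 CPM with IL-13 and 2.42 ± 0.18 CPM in untreated enteroids. Counts per gene do not separate Arf from the other products of Cdkn2a. With butyrate over untreated, where 7.9% of all genes were called, edgeR called 0 of the 15 regulators. It had 0 at an unadjusted p below 0.05, and DESeq2 called 0. With so few regulators and so low a share, a count of 0 does not set them apart.

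Other p53 targets were described in 3 lists by role. Their counts stand beside the 43.5% of all genes called with IL-13 over untreated, 21.8% higher and 21.7% lower, and the 7.9% called with butyrate over untreated. Of the 8 growth arrest targets tested, 7 rose and 0 fell with IL-13 over untreated, with a median of 1.16. Gdf15, a stress cytokine, was at 401 ± 52.5 CPM with IL-13 and 132 ± 12.99 CPM in untreated enteroids, and Gadd45a, a stress sensor that slows the cell cycle, at 251 ± 16.5 CPM with IL-13 and 127 ± 8.85 CPM in untreated enteroids. Btg2, an antiproliferative factor, rose by 0.74 ± 0.08. Of the 10 apoptosis targets tested, Pmaip1 (NOXA) rose, by 0.70 ± 0.1, Pidd1 fell, by 1.03 ± 0.13, and 8 did not pass, with a median of 0.10. Of the 14 repair and metabolism targets, 4 rose and 4 fell, with a median of 0.13. Ddit4, an inhibitor of mTORC1, rose by 0.67 ± 0.1 and Tigar, a regulator of glycolysis, by 0.52 ± 0.09, while the glutaminase Gls2 fell by 1.21 ± 0.21. With butyrate over untreated, 2 growth arrest targets rose, Cdkn1a by 0.65 ± 0.07 and Gadd45a by 0.77 ± 0.09, and 1 apoptosis target, Pmaip1, by 0.39 ± 0.1. The Pmaip1 call (edgeR adjusted p = 0.028) was lost without untreated replicate 2 (0.1), untreated replicate 3 (0.15), butyrate replicate 1 (0.13) or butyrate replicate 2 (0.065). Among the 14 repair and metabolism targets edgeR called 0 with butyrate, with 1 higher and 2 lower at an unadjusted p below 0.05 and 1 higher by DESeq2.

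**Figure D3:**
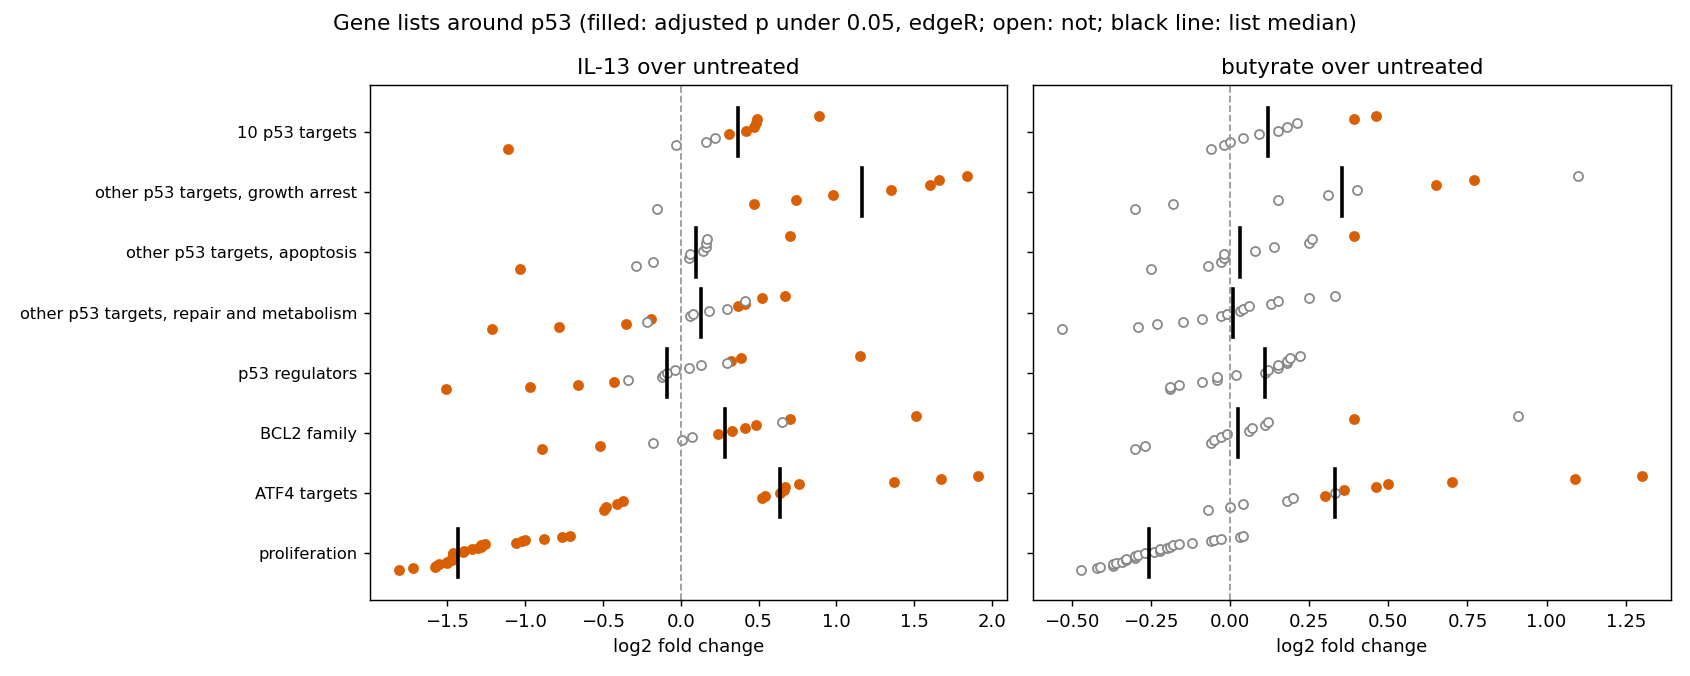
Log2 fold change of each tested gene of the 10 p53 targets and of 7 other lists with IL-13 over untreated (left) and butyrate over untreated (right), on axes of different range. Filled points had an edgeR adjusted p below 0.05 and the black line is the list median, which with IL-13 was 0.36 for the 10 targets, 1.16 for growth arrest targets and -1.43 for proliferation genes.

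Among the 12 tested genes of the BCL2 family other than Bax and Bbc3, 6 rose and 2 fell with IL-13 over untreated, with a median of 0.28. Of all genes 43.5% were called in this comparison, 21.8% higher and 21.7% lower. The members called act on both sides of apoptosis. Those that rose and promote it were Pmaip1, given above, and the pore-forming members Bok, at 129.9 ± 6.85 CPM with IL-13 and 45.5 ± 2.23 CPM in untreated enteroids, and Bak1, at 310.3 ± 26.8 CPM with IL-13 and 222 ± 4.85 CPM in untreated enteroids. Those that rose and oppose it were Bcl2l1, by 0.41 ± 0.08, Mcl1, by 0.33 ± 0.08, and Bcl2l2, by 0.24 ± 0.08. With library totals Mcl1 (adjusted p = 0.095) and Bcl2l2 (0.54) were lost, and Bcl2l2 was also lost without untreated replicate 1 (0.12), untreated replicate 2 (0.075) or IL-13 replicate 2 (0.1). Bmf, a BH3-only protein that promotes apoptosis, fell by 0.52 ± 0.15 (edgeR adjusted p = 0.0096, and 0.053 without IL-13 replicate 1). Bcl2, which opposes apoptosis, was at 4.22 ± 1.01 CPM with both agents, 12.4 ± 1.59 CPM with IL-13, 18.6 ± 3.87 CPM with butyrate and 23.1 ± 0.972 CPM in untreated enteroids. It fell by 0.89 ± 0.16 with IL-13 over untreated and by 1.56 ± 0.2 with both agents over IL-13 (edgeR adjusted p = 2.7e-05).

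ATF4 is the transcription factor of the integrated stress response, and its targets were counted because Sesn2 belongs to them as well as to those of p53. Of 13 tested, 9 rose and 4 fell with IL-13 over untreated, 7 rose and 0 fell with butyrate over untreated, and 10 rose and 0 fell with both agents over IL-13, with medians of 0.64, 0.33 and 0.51. Among all genes 43.5%, 7.9% and 21.2% were called in these comparisons, in the same order. The list holds the gene Atf4 itself, which was among those that rose in each of them. Ddit3 (CHOP) had 272, 283 and 280 CPM with both agents, 155, 188 and 169 CPM with IL-13, 120, 98.6 and 126 CPM with butyrate and 47.3, 57.2 and 56.9 CPM in untreated enteroids. The groups with a single agent lay between the group with both and the untreated one. The means of Sesn2 stood in this order, and so did those of Mdm2, Ccng1, Zmat3, Trp53inp1, Cdkn1a and Gadd45a. The order was therefore not particular to ATF4 targets. The part of ATF4 in the Sesn2 result was not tested. All 26 proliferation genes fell with IL-13 over untreated, with a median of -1.43, and 18 of 26 fell with both agents over IL-13. With butyrate over untreated edgeR called 0 of 26, with 9 lower at an unadjusted p below 0.05 and 4 lower by DESeq2. Their summed level was 394 to 497 CPM with both agents, 607 to 796 with IL-13, 1521 to 1600 with butyrate and 1740 to 1806 in untreated enteroids, and the part of this difference in the results for the p53 targets was not tested.

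Replicates of 1 group are compared here in the pair of each group that differed most between GC-rich and GC-poor genes, so over all genes a trend with base composition is set by that choice and is no finding. The spread was widest with butyrate, where replicate 2 over replicate 3 was 0.73 for Trp53inp1 and 0.63 for Ccng1 on the log2 scale of CPM, the targets with the lowest transcript GC at 38.8% and 40.8%. In the same pair it was -0.49 for Phlda3, with 62.6% GC, and -0.59 for Bbc3, with 65.2% GC. Over all genes the median of this pair was 0.36 below 45% GC and -0.32 above 55% GC. With both agents, replicate 1 over replicate 2 was 0.35 for Trp53inp1 and -0.36 for Bbc3, against 0.20 and -0.16 for all genes of low and high GC. With IL-13, replicate 1 over replicate 2 did not run with GC in every target, at 0.14 for Bax, with 63.5% GC, and -0.15 for Zmat3, with 47.6% GC. The level of GC-rich against GC-poor genes, as a difference of medians on the log2 scale, overlapped between the groups, at -0.19 to 0.16 with both agents, 0.01 to 0.10 with IL-13, -0.40 to 0.28 with butyrate and -0.09 to 0.12 in untreated enteroids. Its part in the calls was not tested other than by the offset for GC in each library. With it, Mdm2, Ccng1, Phlda3, Zmat3, Sesn2 and Trp53inp1 were called higher and Sesn1 lower with IL-13 over untreated, as without it, and Aen was added (adjusted p = 0.027). Phlda3 was added with butyrate over untreated (adjusted p = 0.04) and Bbc3 (adjusted p = 0.0025) and Aen (adjusted p = 0.031) with both agents over IL-13. Also added were Bbc3 with both agents over untreated (0.42), Trp53inp1 with both agents over butyrate (0.22) and the interaction of Phlda3, each with the adjusted p given above.

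**Figure D4:**
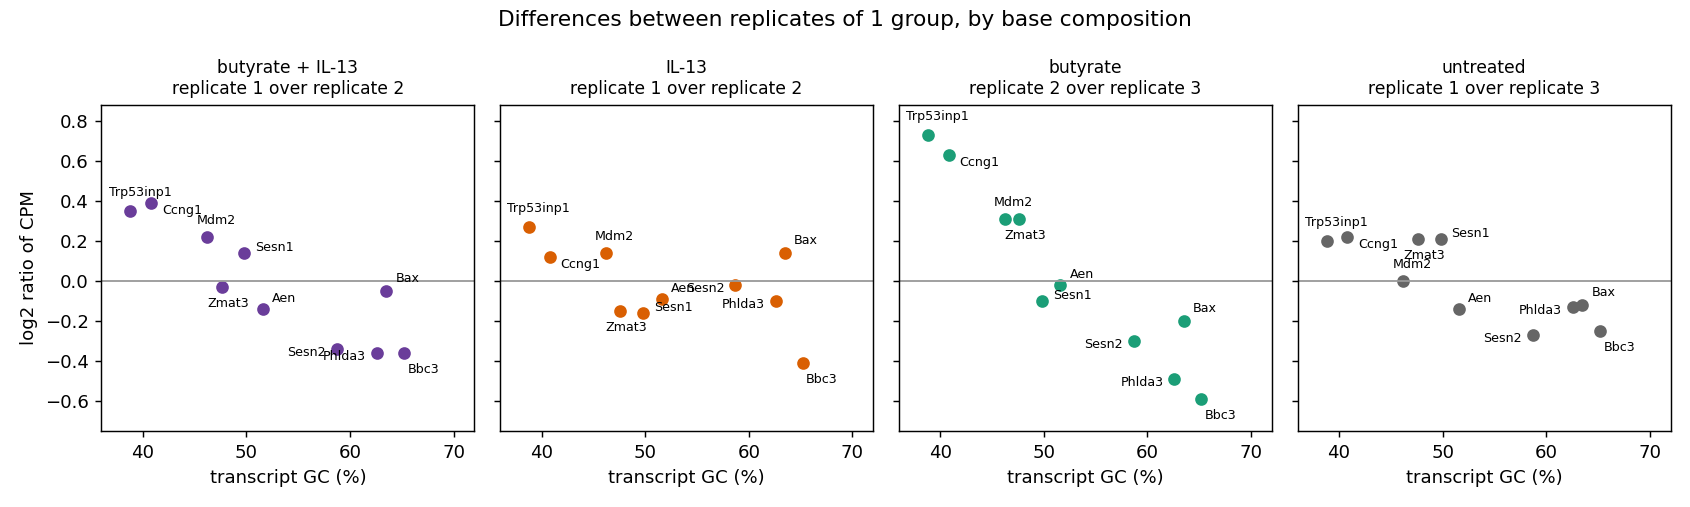
Log2 ratio of CPM between 2 replicates of the same group against the GC content of the gene's transcript (%), for the 10 p53 targets, with the pair in each group that differed most in the level of GC-rich against GC-poor genes, the replicate lower in GC-rich genes on top. With butyrate the ratio runs between 0.73 for Trp53inp1 and -0.59 for Bbc3, and with IL-13 it stays between 0.27 and -0.41.

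For each target the gene with the most similar profile was sought among 10727 others, by the root mean square difference of log2 CPM over the 12 libraries after each gene was centred on its mean. Mdm2 was nearest to Rnf14 (0.056), Ccng1 to Selenot (0.057), Bax to Tbrg1 (0.050) and Zmat3 to Tmem192 (0.070). Phlda3 was nearest to Klc2 (0.106), which was at 55.9 CPM with both agents, 64.9 CPM with IL-13, 40.4 CPM with butyrate and 40.5 CPM in untreated enteroids. Sesn2 was nearest to Kdm6b (0.083), at 243 CPM with both agents, 192 CPM with IL-13, 169.8 CPM with butyrate and 131 CPM in untreated enteroids. Sesn1 was nearest to Dapp1 (0.105), which was likewise lower with IL-13, at 26.2 CPM against 52.1 CPM in untreated enteroids. Trp53inp1 was nearest to Slc25a24 (0.088), Aen to Dph3 (0.084) and Bbc3 to Atpif1 (0.092). Within the set, Mdm2 and Ccng1 were each other's nearest member at 0.103, and Sesn1 was farthest from any other, at 0.568 from Bbc3.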

How the data were processed

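The authors deposited 1 table with whole-number read counts per gene in 12 libraries, not normalised, together with their own p-value, FDR and log2 fold change for IL-13 against untreated, from a DESeq comparison per the file headers. Of the authors' deposited p-values and log2 fold changes, only the FDR of Aen is quoted. Per the submitters' processing notes the reads were placed on mm10. The aligner, the read counter and its strand setting are not stated in the sources used. Columns headed US with a number were read as the untreated libraries of that number. Rows of 23 genes with several rows were summed, so 18092 rows became 18068 genes. There were 0 mitochondrial rows.

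The tests used R 4.3.3 and edgeR 4.0.16 on the deposited counts (TMM, filterByExpr, robust glmQLFit and glmQLFTest) in 1 model of all libraries with a term for each group and none for the replicate number. It had 8 residual degrees of freedom and a biological coefficient of variation of 10.2%. The fit was checked on simulated counts. Alternatives were RLE scaling, library totals, DESeq2 1.42.0, no filter, a mean of at least 50 counts, a block for the replicate number, leaving out 1 library at a time, a fit restricted to the 2 groups of a comparison, both libraries high in Lars2 left out, and thinning to the lowest total. The GC offset was added after the data were seen. Intervals are approximate 95% ones from the standard error.

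The 10 targets and the lists were chosen with earlier results of these data known. Genes named from the lists were up to 4 called ones per comparison with the smallest adjusted p, plus Trp53 and Mdm4. Outside this rule Cd68, Itgam, Ptprc, Pecam1, Lars2, Mcl1, Bcl2l2 and Bmf were named after their values were seen. Symbols, exon lengths and transcript GC came from GENCODE, and Ptprv and Col3a1 were not analysed here. Python 3.11.15 with pandas 2.3.3, numpy 2.4.6 and matplotlib 3.10.9 served for tables and plots.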

Additional observations from a re-analysis of the deposited data

Results flagged for a closer look

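Genes of 2 of the lists responded to butyrate differently in the presence of IL-13 than in its absence, by the edgeR test of the interaction. That test called 0.865% of all genes and 0 of the 10 p53 targets, so the count of targets does not set them apart. Bcl2, the inhibitor of apoptosis, had an interaction of -1.26 ± 0.25 on the log2 scale (adjusted p = 0.021). Its butyrate response was -1.56 ± 0.2 with IL-13 and -0.30 ± 0.16 without it. The call was kept under 14 of 21 alternatives, and was lost without untreated replicates 1 or 2, butyrate replicate 1, IL-13 replicates 1 or 3 or butyrate + IL-13 replicate 3, with adjusted p up to 0.074. Without both libraries high in Lars2 it was 0.073.

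The others were subunits of the MCM helicase that opens DNA for replication. Mcm2 had an interaction of -1.06 ± 0.17 (edgeR adjusted p = 0.0059), called under all 21 alternatives. Mcm3 was at -1.01 ± 0.2 (edgeR adjusted p = 0.019), and without untreated replicates 2 or 3, butyrate replicate 1, IL-13 replicates 2 or 3 or butyrate + IL-13 replicate 3 its adjusted p rose above 0.05, up to 0.071. Mcm5 was at -0.96 ± 0.22 (edgeR adjusted p = 0.04) and Mcm6 at -0.85 ± 0.19 (edgeR adjusted p = 0.044). Both were lost without any 1 of the untreated replicates, butyrate replicate 1, IL-13 replicates 2 or 3 or butyrate + IL-13 replicate 3, and Mcm5 also without butyrate replicate 2 or butyrate + IL-13 replicate 2, with adjusted p up to 0.14 for Mcm5 and 0.16 for Mcm6. Without both libraries high in Lars2 the adjusted p was 0.13 for Mcm5 and 0.061 for Mcm6, and with RLE scaling it was 0.051 for Mcm6. The Mcm5 call was kept under 10 of 21 alternatives, that of Mcm6 under 11 and that of Mcm3 under 15.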

How the results depend on the processing

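For the 60 results of the 10 targets, 1310 values were computed under 22 alternatives (21 for the interaction, which has no fit of only the groups compared). Of these, 1223 kept their direction, where called, and their side of the threshold, 65 calls were lost, 21 were gained and 1 was reversed. The number of targets called with butyrate over untreated was 2, and it was 0 with library totals and 1 with no filter, with a mean of at least 50 counts, in a fit of only the groups compared, without both libraries high in Lars2 and after thinning. With both agents over IL-13 it was 2, and 1 with RLE scaling, DESeq2, a mean of at least 50 counts, the replicate block or without both libraries high in Lars2, and 4 with the GC offset, which was chosen after seeing the data. Library totals gave 4 in place of 7 with both agents over untreated and 2 in place of 6 with both agents over butyrate, and with both agents over IL-13 they left the count at 2 with Aen in place of Sesn2. Under library totals the number of all genes called stayed within 1.5-fold of the main fit in each comparison. The GC offset gave 1 in place of 0 for the interaction. The causes were not tested. Leaving out 1 library at a time gave 5 to 8 with IL-13 over untreated, 0 to 2 with butyrate, 7 to 8 with both agents over untreated, 0 to 3 with both over IL-13, 5 to 7 with both over butyrate and 0 for the interaction. Over all genes it gave 4923 to 6473, 559 to 1395, 7376 to 8558, 1935 to 3451, 5586 to 6632 and 55 to 213, in the same order.

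With library totals Bax with both agents over untreated was reversed, at -0.20 in place of 0.09 (edgeR adjusted p = 0.036). The sign also changed for Perp, at -0.08 in place of 0.21, Mcl1, at -0.01 in place of 0.28 (edgeR adjusted p = 0.92), and Bcl2l2, at -0.01 in place of 0.28 (0.9). With both agents over butyrate Bcl2l2 was at -0.02 in place of 0.21 (edgeR adjusted p = 0.84). The calls of Mcl1 and Bcl2l2 were thus lost and not turned around. Under that scaling the share of called genes that were higher was 28.1% in place of 50.1% with IL-13 over untreated and 47.0% in place of 65.1% with butyrate. It was 23.9% in place of 47.3% with both agents over untreated, 19.7% in place of 46.5% with both over IL-13 and 22.6% in place of 47.9% with both over butyrate. Over all genes, calls with butyrate numbered 1086, and 559 to 1395 with 1 library left out and 1743 with the GC offset. Those with both agents over IL-13 numbered 2912, and 1935 without butyrate + IL-13 replicate 3. Those of the interaction numbered 119, and 55 to 213 with 1 library left out, 265 with DESeq2 and 277 with the GC offset.

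Whether a replicate number pairs libraries across groups is not stated in the labels. Same-numbered libraries correlated between -0.37 and 0.27 in their deviations from the group means. With 3 libraries a group and no values for differently numbered libraries beside them, these correlations cannot decide it. A fit with the replicate block called 7 targets with IL-13 over untreated, 2 with butyrate, 7 with both agents over untreated, 1 with both over IL-13, 6 with both over butyrate and 0 for the interaction. The main fit called 43.5%, 7.9%, 59.7%, 21.2%, 47.7% and 0.865% of all genes in these comparisons, in the same order. The block left each number of all genes called within 1.5-fold of the main one. With the block the edgeR interactions of Mcm5 and Mcm6 had adjusted p-values of 0.063 and 0.067, and Pecam1 with IL-13 over untreated had 0.053. The lowest count of any target was 386, for Bbc3 in IL-13 replicate 1. For that gene the approximate 95% interval of IL-13 over untreated was -0.33 to 0.28, so a difference inside it was not excluded. The interval is not a limit of detection, and with 3 libraries a group a larger difference could also fail to pass.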
